A study of Mus musculus with 3 samples.

Results

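The 35 genes described here encode proteins of the DNA damage response and of DNA repair, grouped by role as checkpoint signalling, homologous recombination, the Fanconi pathway, mismatch repair, excision repair and end joining. They were chosen by symbol, and every probe set annotated to 1 of these symbols alone was taken. Of the 35 genes, 34 had such a probe set, 78 probe sets in all, out of 18194 genes named in this way on the array. Trp53 was not analysed here. The brightest probe set of a gene stood for it in the test, and 32 of the 35 genes passed a filter on dim signal that kept 12725 genes.

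The arrays measured RNA of follicular regulatory T (Tfr) cells, a Foxp3-expressing subset that works inside B cell follicles to limit germinal centres. The cells came from spleens of C57BL/6 mice at day 8 after immunization with OVA, and were sorted after lineage depletion with antibodies to CXCR5, CD25, GITR, CD44 and CD4. The wild-type (WT) group was 1 array on a pool of 4 mice. The Rptor-null group was 2 arrays, each on a pool of 8 mice carrying CD4-Cre and floxed Rptor alleles. CD4-Cre acts in the T cell lineage from the thymus onward, so the deletion is not limited to Tfr cells and precedes their formation. The product of Rptor, raptor, defines the growth-regulating kinase complex mTORC1. The comparison thus addresses whether Tfr cells formed without raptor express repair genes at other levels. The ages and sexes of the mice were not given in the sources used here.

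DNA breaks are sensed by the kinases ATM and ATR, which act through CHK2 and CHK1 to halt the cell cycle. A break is rejoined directly by end joining, or copied from the sister chromatid by homologous recombination, which is used mostly in S and G2 phase. Crosslinks are handled by the Fanconi proteins, mispaired bases by mismatch repair, and damaged bases and bulky lesions by base and nucleotide excision repair. Lymphocytes also use end joining to assemble antigen receptor genes. Many genes of homologous recombination and mismatch repair are transcribed with the genes of DNA replication as cells enter S phase.

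Promoter stretches are shown for the 3 members that passed the gene test described below, Brca1, Msh6 and Parp1. The sequences are from RefSeq annotation of the build GRCm38.p6, which held promoters for 28 of the 35 genes. Each line gives the 250 bases before the annotated start in the direction of transcription, and capitals mark matches on either strand to the CCAAT box (letters CCAAT) or the GC box (letters GGGCGG). Brca1 lies at chr11:101551956-101552205 on the minus strand, Msh6 at chr17:87974800-87975049 on the plus strand and Parp1 at chr1:180568641-180568890 on the plus strand.
Brca1: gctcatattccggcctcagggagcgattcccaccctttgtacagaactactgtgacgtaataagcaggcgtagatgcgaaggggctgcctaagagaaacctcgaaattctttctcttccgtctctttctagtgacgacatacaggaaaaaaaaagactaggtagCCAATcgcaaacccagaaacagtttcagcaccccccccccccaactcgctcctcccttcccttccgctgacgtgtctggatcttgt
Msh6: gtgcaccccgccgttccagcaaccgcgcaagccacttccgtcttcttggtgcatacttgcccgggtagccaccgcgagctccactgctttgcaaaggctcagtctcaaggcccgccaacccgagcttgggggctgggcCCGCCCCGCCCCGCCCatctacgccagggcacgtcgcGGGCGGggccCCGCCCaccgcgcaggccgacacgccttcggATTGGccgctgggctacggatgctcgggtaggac
Parp1: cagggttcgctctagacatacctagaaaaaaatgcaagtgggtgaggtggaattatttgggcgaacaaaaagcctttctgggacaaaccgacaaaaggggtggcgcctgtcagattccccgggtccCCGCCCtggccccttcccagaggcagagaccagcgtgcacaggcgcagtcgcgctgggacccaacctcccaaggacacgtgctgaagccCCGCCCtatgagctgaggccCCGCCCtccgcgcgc

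The Msh6 stretch held 5 GC boxes and 1 CCAAT box. In the Parp1 stretch there were 3 GC boxes and no CCAAT box, and in the Brca1 stretch 1 CCAAT box and no GC box. Neither box was thus common to the 3 members that passed the test. In the full window of 250 bases before to 50 after the start, a CCAAT box was present in 18 of 31 member promoters (58.1%) and in 37.4% of all 32851 promoters. A GC box was present in 22 of the 31 (71.0%) and in 35.7% of all promoters. Both boxes were more frequent still in the G1/S and G2/M cell cycle lists described below. There 65.5% and 77.8% of promoters held a CCAAT box, and 79.3% and 77.8% a GC box. Several genes have more than 1 annotated start, so the 31 promoters belong to 28 genes.

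An E2F-type match, with the letters TTCCCGCC on either strand, was present in the promoters of 4 member genes, 12.9% of the 31 against 2.19% of all promoters. E2F factors drive genes of the G1 to S transition. Of these genes, Msh6 passed the limma gene test (adjusted p = 0.0383) but not the second fit over probe sets (0.0645). Chek1 did not pass the gene test (adjusted p = 0.0984), and 1 of its probe sets passed the second fit (0.0326). Rad51c and Fancb passed neither. Of all genes 11.1% were called lower, and of all probe sets 6.04%. The stretches of 30 bases that hold the matches of the 4 genes are shown. Capitals mark the match. They lie at chr9:36726609-36726638 for Chek1, chr17:87975055-87975084 for Msh6, chr11:87404942-87404971 for Rad51c and chrX:164980408-164980437 for Fancb, in GRCm38.p6. Chek1 and Rad51c are on the minus strand.
Chek1: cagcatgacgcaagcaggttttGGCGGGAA
Msh6: tcctcccgactTTCCCGCCagcggcggccg
Rad51c: tcccccgcgagGGCGGGAAaagcaaggggt
Fancb: tccggggtagaGGCGGGAAtaagtgctctg

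The match began 43 bases after the start in Chek1 and 17 after it in Msh6, and 6 and 173 bases before it in Rad51c and Fancb. By comparison, 7 of 29 promoters of the G1/S list described below held this match and 0 of 27 promoters of the G2/M list did. These are matches of letters and were not tested as binding sites. The motifs were chosen with the results of these arrays known.

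Of the 32 DNA damage response and repair genes tested, 3 were lower in Rptor-null cells. Brca1, Msh6 and Parp1 were lower by 1.67-fold, 1.47-fold and 1.64-fold, 0 members were higher and 29 did not pass. These calls are from limma with Benjamini-Hochberg adjustment over all 12725 genes at a threshold of 0.05, on log2(intensity + 16), a scale on which folds of dim genes are understated. The 3 of 32 members lower (9.38%) stand beside 11.1% of all genes tested that were called lower and 3.93% called higher. The share of members called was therefore near that of the whole array. At an unadjusted p below 0.05, 9 members were lower and 0 higher, against 21.7% of all genes lower at that level.

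The direction of the small differences was more uniform than the calls. In 28 of the 32 members both Rptor-null arrays were below the WT array, where 48.7% of all genes were. Only Atm had both above it, against 32.8% of all genes, and Blm, Fanci and Xpc had 1 on each side. The median log2 difference of the members was -0.24, with medians of -0.19 and -0.26 in the 2 arrays taken separately, while over all genes it was -0.059. Both differences of a gene share the 1 WT array, so they are not independent. After quantile normalization 21 members were below WT in both arrays, beside 40.9% of all genes, the members' median was -0.18 and that of all genes -0.0076.

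**Figure D1:**
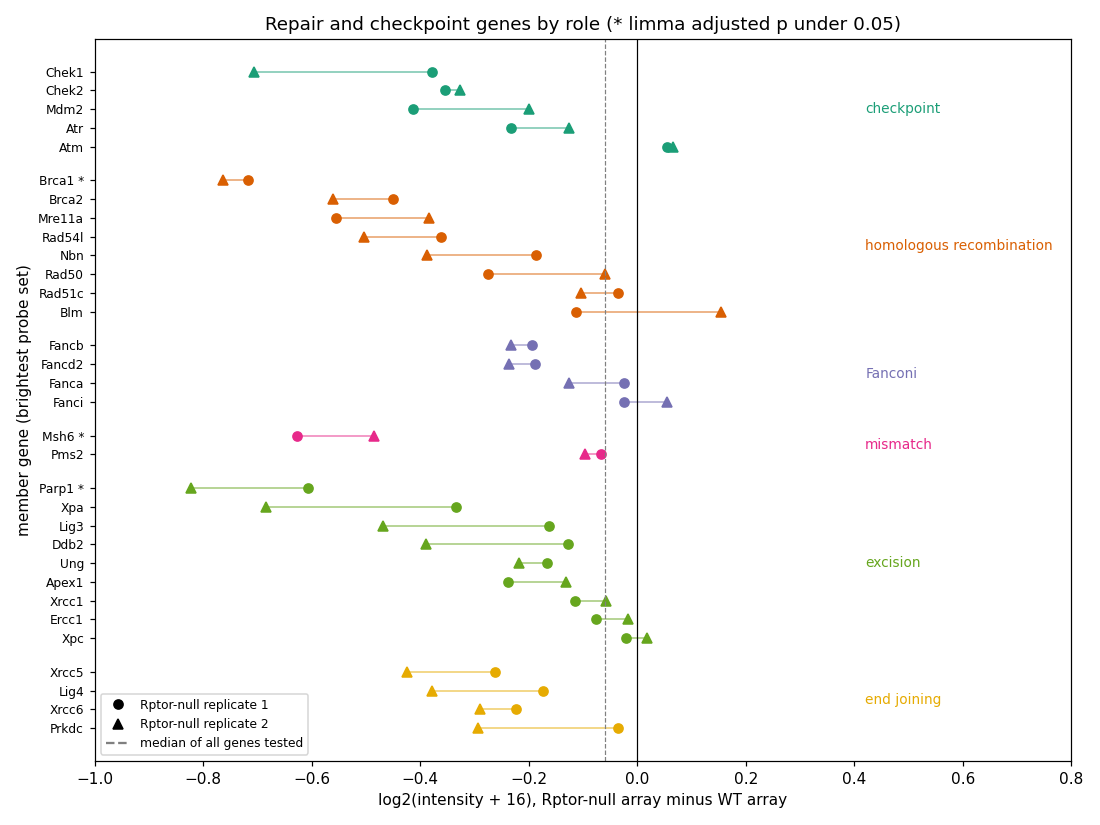
Difference in log2(intensity + 16) between each Rptor-null array and the WT array (x axis) for the 32 member genes tested (y axis), grouped by role, with circles for replicate 1, triangles for replicate 2 and a dashed line at the median of all genes. In 28 genes both symbols lie to the left of 0, and the asterisks mark Brca1, Msh6 and Parp1.

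Differences between the groups varied with brightness over the whole array, so the members were set beside genes of like level. All genes were split by level into 5 bins of 2545, and the median log2 differences, beginning with the dimmest bin, were 0.077, -0.0017, -0.14, -0.15 and -0.12. The members in these bins numbered 2, 11, 12, 5 and 2, with medians of -0.21, -0.28, -0.27, -0.17 and -0.25. Of the 32 members, 25 lay below the median of their bin, and the median gap to it was -0.16. In the fourth bin the median of the 5 members was close to that of all genes of that level, while Parp1 lay -0.56 and Atm 0.22 from it.

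**Figure D2:**
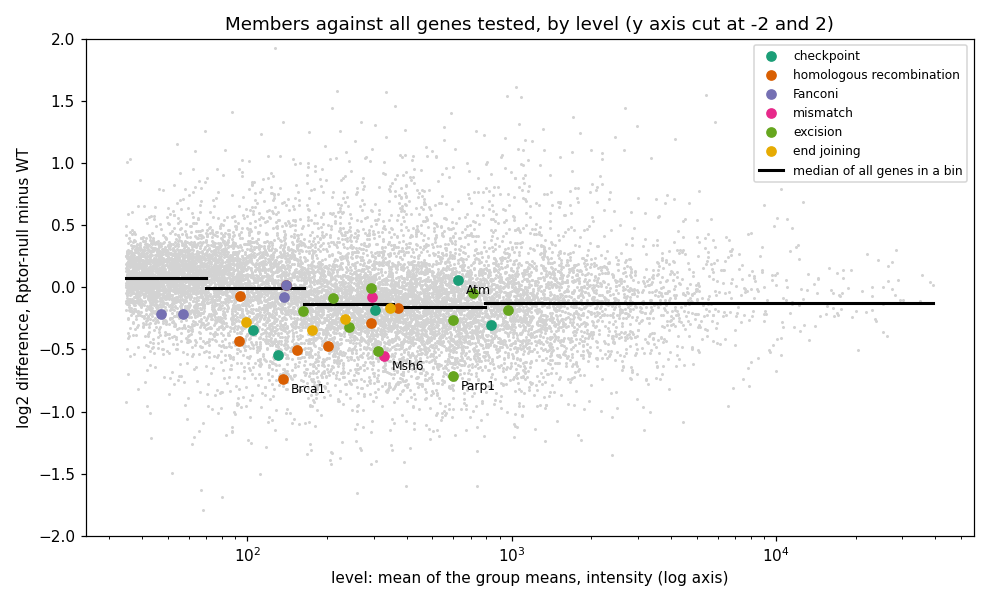
Log2 difference between Rptor-null and WT (y axis, cut at -2 and 2) against the level of each gene (x axis, log scale), with all genes tested in grey, members coloured by role and black lines at the median of all genes in each of 5 bins. Of the 32 members, 25 lie below the line of their bin.

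The checkpoint genes showed no call on their brightest probe sets. Chek1, the kinase that ATR activates at stalled replication forks, read 160 in WT and 120 and 92.0 in Rptor-null cells on that probe set, a log2 difference of -0.54 ± 0.19 (SE; adjusted p = 0.0984). Its other kept probe set read 105 in WT and 53.01 and 52.09 in Rptor-null cells. Both Rptor-null values were about equal there and well below WT. In a second fit over all 27022 kept probe sets this difference passed (log2 difference -0.81 ± 0.17, adjusted p = 0.0326). Of all probe sets kept, 6.04% were called lower and 2.79% higher in that fit, and of the 53 kept probe sets of members 5 were lower (9.43%) and 0 higher.

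Chek2, the kinase downstream of ATM, read 120 in WT and 90.5 and 92.7 (log2 difference -0.34 ± 0.16, adjusted p = 0.197). Atm read 614 in WT and 639 and 644, and its second probe set 483, 480 and 484. Its 3 arrays were thus nearly level on both probe sets (log2 differences 0.060 and -0.0034). Atr, the kinase of replication stress, read 325 in WT and 275 and 297 (adjusted p = 0.443). Its dimmer probe sets had log2 differences of 0.099 and 0.13, on the other side of WT. Mdm2, the ubiquitin ligase that limits p53 and is itself a p53 target, read 929 in WT and 693 and 807 (log2 difference -0.31 ± 0.13, adjusted p = 0.154). On its second kept probe set the Rptor-null arrays fell on either side of the WT value of 171, at 210 and 140.

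Among the genes of homologous recombination Brca1 was called lower. BRCA1 promotes the resection of broken ends and works with PALB2 and BRCA2 in strand exchange. Brca1 read 181 in WT and 104 and 100.0 in Rptor-null cells, a log2 difference of -0.74 ± 0.16 (adjusted p = 0.0215). The 2 Rptor-null values were close together and far from WT. The second kept probe set read 46.2 in WT and 62.4 and 38.4, with the Rptor-null arrays on either side of WT. Averaged over both probe sets the Brca1 difference was -0.33 and its call was lost (adjusted p = 0.221).

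Brca2, a mediator of strand exchange, read 187 in WT and 133 and 122 (log2 difference -0.50 ± 0.16, adjusted p = 0.0739). It passed after median centring (adjusted p = 0.0483) and with the mean of probe sets (adjusted p = 0.0421), although it has 1 probe set, since the values of other genes change in that fit. Bard1, the partner of BRCA1 in a ubiquitin ligase, was under the filter, at 30.6 in WT and 21.1 and 21.4. Rad54l, a DNA motor protein of strand exchange, read 110 in WT and 82.3 and 73.1 (log2 difference -0.43 ± 0.16, adjusted p = 0.124). Rad51c, which takes part in strand exchange, read 96.4, 93.6 and 88.6, with nearly level arrays.

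The complex of MRE11, RAD50 and NBS1 binds broken ends and recruits ATM. Mre11a, its nuclease, read 241 in WT and 159 and 181 (log2 difference -0.47 ± 0.16, adjusted p = 0.0906), and its second probe set 58.6 in WT and 70.6 and 66.2, on the other side. Nbn, which encodes NBS1, read 326 in WT and 284 and 245 (adjusted p = 0.253). Rad50 read 393 in WT and 322 and 376 (adjusted p = 0.498). All 3 subunits were below WT in both arrays on their brightest probe sets, as 48.7% of all genes were, and none passed. Blm, the Bloom helicase, read 138 in WT and 127 and 156. The 3 probe sets of Exo1, a nuclease of resection and mismatch repair, were under the filter, with values from 8.01 to 39.0. For the 8 genes of this group that were tested, the median log2 difference was -0.36, the lowest of the 6 groups.

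The 4 Fanconi genes had small differences. Fancd2 and Fanci encode the pair that is ubiquitinated when forks meet a crosslink, and Fanca and Fancb belong to the complex that ubiquitinates it. Fanci read 139 in WT and 136 and 145, and Fanca 142, 139 and 129. Fancd2 read 62.6 in WT and 52.98 and 50.71 (log2 difference -0.21 ± 0.15, adjusted p = 0.405). The X-linked Fancb read 51.8 in WT and 43.3 and 41.7 (log2 difference -0.21 ± 0.15, adjusted p = 0.391). Xist, the RNA that coats the inactive X chromosome, was at 6691 in WT and at 1687 and 1143 on the other arrays. Its log2 difference of -2.26 ± 0.20 (limma, adjusted p = 0.00286) was the lowest of all 12725 genes tested. Whether the WT and Rptor-null pools differed in the share of female mice was not tested. The part of such a difference in the values of Fancb and of the other genes was not tested either. The median of the 4 Fanconi genes was -0.14.

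In mismatch repair Msh6 was called lower and Pms2 was not. MSH6 belongs to a dimer that recognises mispaired bases, and PMS2 to a dimer that acts downstream of it. Msh6 read 402 in WT and 254 and 283 in Rptor-null cells (log2 difference -0.56 ± 0.14, adjusted p = 0.0383). Both Rptor-null values were below WT and within a narrow range of each other. The call was lost after quantile normalization (-0.46, adjusted p = 0.0936) and without a variance trend (adjusted p = 0.0592). In the fit over all kept probe sets its probe set did not pass either (adjusted p = 0.0645). Pms2 read 306 in WT and 291 and 285 (log2 difference -0.082 ± 0.14, adjusted p = 0.74), and its 3 kept probe sets ranged from -0.24 to -0.082. The difference between Msh6 and Pms2 was not tested.

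Excision repair held the remaining called gene, Parp1, which encodes the sensor of strand breaks that makes poly(ADP-ribose). Parp1 read 770 in WT and 500 and 429 in Rptor-null cells (log2 difference -0.71 ± 0.13, adjusted p = 0.0145). The WT value stood well above both others. Both of its probe sets next in brightness went the same way, at 456 in WT and 336 and 376, and at 308 in WT and 187 and 216, with log2 differences of -0.35 and -0.58 that did not pass. The dimmest read 54.4 in WT and 60.7 and 61.6. With the mean of the 4 probe sets the difference was -0.38 and the call was lost (adjusted p = 0.0805).

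The other base excision genes did not pass on their brightest probe sets. Apex1, the endonuclease that cuts at abasic sites, read 1033 in WT and 874 and 942 (log2 difference -0.18 ± 0.11, adjusted p = 0.308). Its other probe sets had log2 differences of -0.55 and -0.44 (adjusted p = 0.0596 and 0.0896 in the probe-set fit). The gene passed with the mean of the 3 (-0.39, adjusted p = 0.0456). It also passed without probe sets that can match several transcripts (-0.55, adjusted p = 0.0389). Ung, the uracil glycosylase, read 174 in WT and 153 and 147 (adjusted p = 0.46). Xrcc1, the scaffold of single-strand break repair, read 218 in WT and 200.4 and 209 (adjusted p = 0.746). Lig3, the ligase bound to XRCC1, read 272 in WT and 241 and 192 (adjusted p = 0.271), while its second kept probe set read 190 in WT and 180 and 205.

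In nucleotide excision repair the result depended on the probe set. Ddb2, the ultraviolet damage sensor and a p53 target, read 502 in WT and 284 and 274 on the dimmer of its probe sets, a log2 difference of -0.81 ± 0.14 (probe-set adjusted p = 0.0204). On the brighter one it read 654 in WT and 597 and 496 (log2 difference -0.26 ± 0.14, adjusted p = 0.271). Both probe sets were below WT in both arrays, and the mean of the 2 passed (-0.54, adjusted p = 0.0244).

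Ercc1, a subunit of the nuclease that cuts on the 5′ side of a lesion, read 240 in WT and 126 and 147 on 1 probe set (log2 difference -0.75 ± 0.17, probe-set adjusted p = 0.0463). On its brightest probe set it read 723 in WT and 685 and 714, nearly level, and on the dimmest 73.4 in WT and 101 and 85.1, above WT. These spanned 1.03 log2 units, the widest range of any member. Xpa, which verifies the lesion, read 374 in WT and 293 and 227 (log2 difference -0.51 ± 0.17, adjusted p = 0.0967). Xpc, the sensor of helix distortion, read 295 in WT and 290 and 298, and was nearly level.

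**Figure D3:**
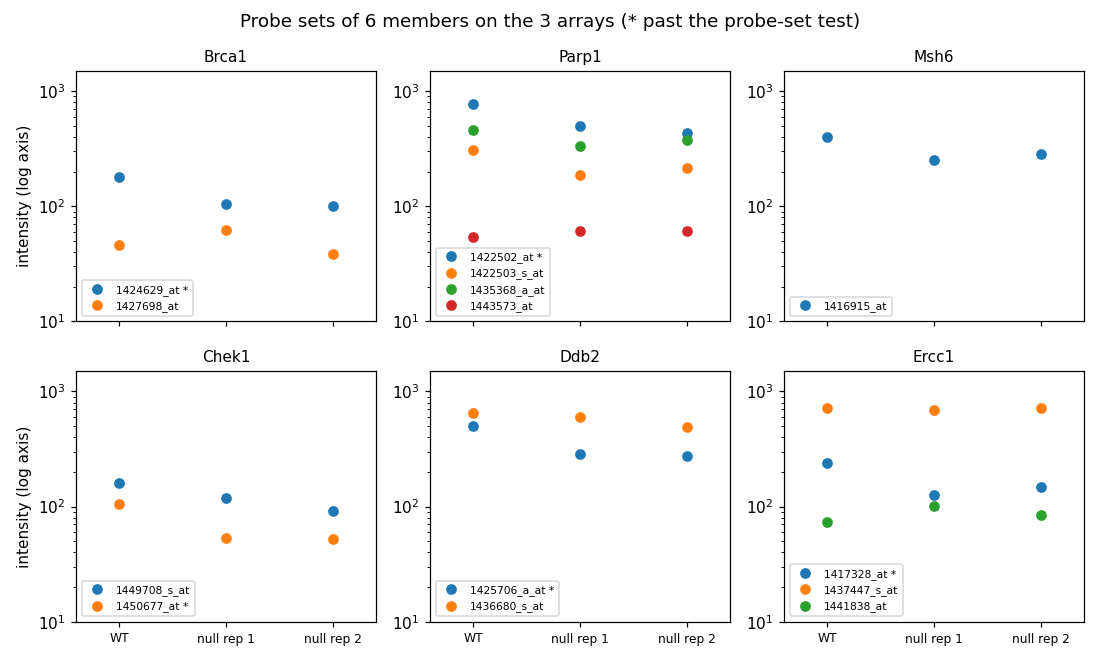
Intensity (y axis, log scale) of each kept probe set of Brca1, Parp1, Msh6, Chek1, Ddb2 and Ercc1 on the WT array and on Rptor-null replicates 1 and 2 (x axis), with 1 point per array and 1 colour per probe set. Probe sets with an asterisk passed the probe-set test, and on each of them both Rptor-null points lie below the WT point.

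The 4 end-joining genes were below WT in both arrays, as 48.7% of all genes were, and none passed. Xrcc5 and Xrcc6 encode Ku80 and Ku70, the ring that clamps broken ends. Xrcc5 read 199 in WT and 164 and 145 (log2 difference -0.34 ± 0.16, adjusted p = 0.201), and Xrcc6 read 258 in WT and 219 and 208 (log2 difference -0.26 ± 0.15, adjusted p = 0.286). Prkdc, the catalytic subunit of the kinase that Ku recruits, read 369 in WT and 360 and 298 (adjusted p = 0.534). Lig4, the ligase of the pathway, read 110 in WT and 95.8 and 81.0 (adjusted p = 0.328). The group median was -0.27.

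Probe sets of 1 gene often differed from each other. Among 15 members with several kept probe sets, in 7 every probe set deviated from WT in 1 direction, as in 2871 of 5641 genes on the array. The median range within a gene was 0.31 log2 units for members and 0.34 for all genes. With probe sets that can match several transcripts, of 1 gene or of several, left out, 6 of 26 members were lower: Brca1, Msh6, Parp1, Chek1, Apex1 and Ercc1. With the mean of probe sets 5 of 32 were lower: Chek1, Brca2, Msh6, Apex1 and Ddb2. In those fits 9.67% and 10.6% of all genes were called lower. Of the genes called in any of these fits only Msh6 passed in all 3, and it has 1 probe set. That probe set did not pass the limma fit over all kept probe sets (adjusted p = 0.0645).

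**Figure D4:**
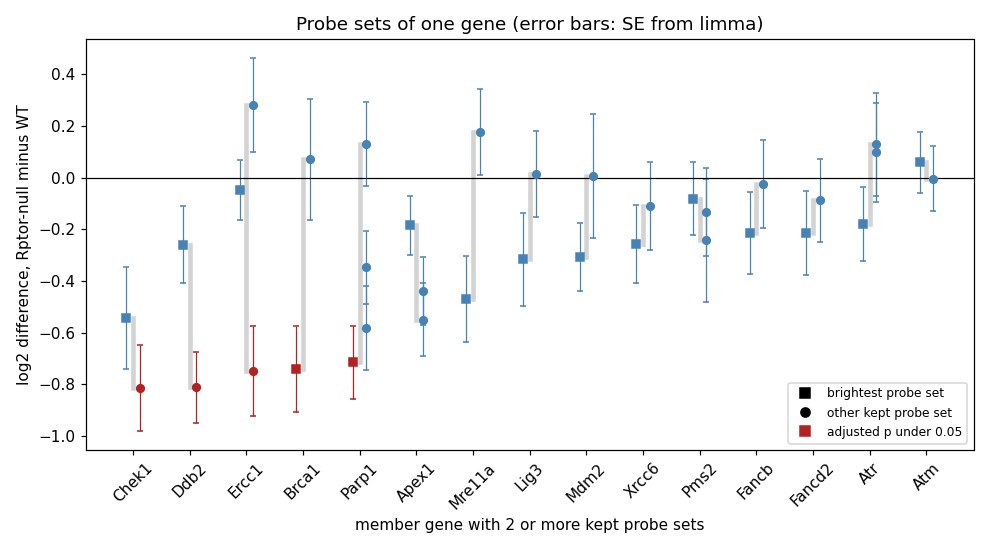
Log2 difference between Rptor-null and WT (y axis) with its standard error from limma for each kept probe set of the 15 members that have 2 or more (x axis). Squares are the brightest probe set of a gene, circles the others, and red marks an adjusted p under 0.05; Ercc1 spans 1.03 log2 units.

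At least 1.5-fold lower values in both Rptor-null arrays, a count with no test, were found for Brca1 and Parp1 alone among the members, 2 of 32 beside 5.12% of all genes. No member was 1.5-fold higher in both, as 2.25% of all genes were. With only the second Rptor-null array, left after replicate 1 was taken out, 4 members were 1.5-fold lower, beside 7.01% of all genes. With only the first 3 were, beside 7.86% of all genes. The count was 0 with a pseudocount of 64, 1 after quantile normalization and 1 with the mean of probe sets.

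Other genes of the same pathways were taken from lists by role, 119 symbols of which 102 were tested. Of these, 22 were lower (21.6%, beside 11.1% of all genes), 0 higher (3.93% of all genes) and 80 did not pass, and the median log2 difference was -0.23. In the 5 level bins above, the share of all genes called lower rose from 1.38% in the dimmest to 22.0% in the brightest. The 102 genes were not set beside genes of like level. After quantile normalization 13 were lower, where 5.46% of all genes were. The fork-protection pair of the checkpoint was lower: Tipin read 950 in WT and 514 and 436, and Timeless 445 in WT and 283 and 273. Clspn, the adaptor through which ATR activates CHK1, read 253 in WT and 117 and 135 (log2 difference -0.92, adjusted p = 0.0119). Brcc3, a deubiquitinase of the BRCA1-A complex, read 709 in WT and 444 and 409. In all 6 of 20 further checkpoint genes were lower, the other two being Rad1 and H2afx, which encodes the histone H2AX.

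In homologous recombination 7 of 20 further genes were lower (35%, beside 11.1% of all genes). Rad51ap1, an accessory factor of strand exchange, read 181 in WT and 81.5 and 77.3 (log2 difference -1.05, adjusted p = 0.00758). Rad51b, another gene of strand exchange, read 67.5 in WT and 23.3 and 27.8 (log2 difference -1.01, adjusted p = 0.00758). Both of its Rptor-null values were under the filter level of 34.8, so the gene was kept only through its WT value. Rpa2, a subunit of the single-strand binding protein RPA, read 531 in WT and 306 and 298, and the genes of its other subunits, Rpa1 and Rpa3, were lower too. Swi5 and Sfr1, which form an accessory complex of recombination, were the remaining ones. Swi5 read 1028 in WT and 649.5 and 690.2.

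The counts in the remaining lists stand beside the same 11.1% of all genes called lower. In the Fanconi list, 1 of 13 further genes (7.69%) was lower, the E2 enzyme Ube2t, which read 164 in WT and 67.7 and 85.4. In mismatch repair 1 of 3 was lower, Pms1, at 271 in WT and 180 and 175. In excision repair 3 of 27 (11.1%) were lower, the share found over all genes: the replicative ligase Lig1 (971 in WT and 526 and 536), the glycosylase Neil1 (232 in WT and 126 and 141) and Cetn2, a partner of XPC. In end joining 1 of 7 was lower, Xrcc4, the partner of LIG4, at 232 in WT and 144 and 153. Among translesion and direct repair genes 3 of 12 were lower, the demethylase Alkbh2 (187 in WT and 77.2 and 97.1) and the E2 enzymes Ube2a and Ube2b.

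Targets of p53 were read as a further list. Of 20 tested, 0 were lower and 0 higher in limma at the adjusted threshold, beside 11.1% and 3.93% of all genes. An unadjusted p below 0.05 was found for 5 of them, beside 3793 of all 12725 genes. Among these 5, Gadd45a, Zmat3, Trp53inp1 and Fas were lower and Btg2 higher. The list median of -0.066 was close to that of all genes (-0.059). Gadd45a, a damage-induced regulator of growth arrest, read 204 in WT and 144 and 128 (log2 difference -0.53, adjusted p = 0.0653). Zmat3 and Fas had log2 differences of -0.41 and -0.40 (adjusted p = 0.112 and 0.155). Sesn2, a stress-induced inhibitor of mTORC1, read 93.4 in WT and 118 and 138 (log2 difference 0.39, adjusted p = 0.172). The difference between the p53 targets and the repair lists was not tested.

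**Figure D5:**
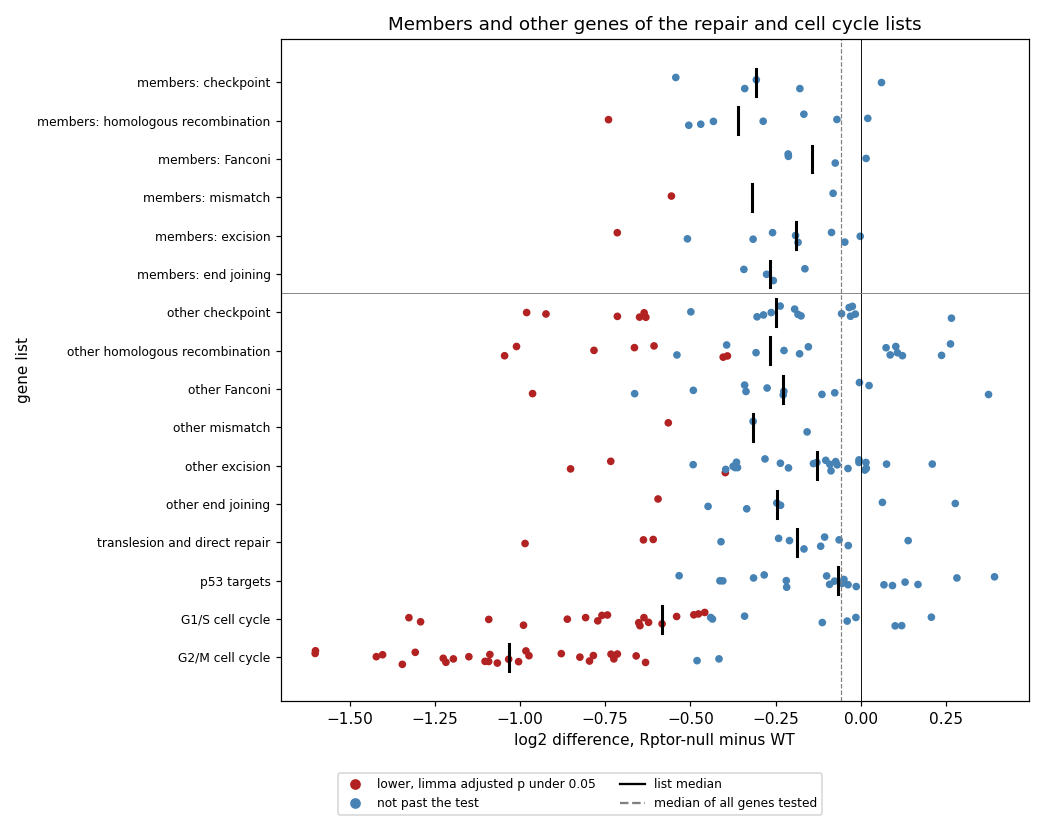
Log2 difference between Rptor-null and WT (x axis) for each gene tested in the 6 member groups, the lists of other repair genes, p53 targets and 2 cell cycle lists (y axis), with red for genes lower in limma, black bars at list medians and a dashed line at the median of all genes. The repair lists lie between the median of all genes, -0.059, and the G1/S and G2/M lists, at -0.58 and -1.03.

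Other measures moved with these differences. Of 27 genes of the G1/S transition 18 were lower and 0 higher, with a median of -0.58, and of 29 G2/M genes 27 were lower and 0 higher, with a median of -1.03. Many repair genes are transcribed in the same phases, and in pooled cells a lower share of cycling cells and less RNA per cell cannot be told apart. The part of the cell cycle genes in the lower repair gene values was not tested. The 3′ to 5′ signal ratio, a measure of RNA integrity, for Gapdh was 1.11 on the WT array, 1.94 on Rptor-null replicate 1 and 2.58 on replicate 2. For beta-actin it was 1.40, 2.65 and 2.87. Both ratios were thus higher on both Rptor-null arrays than on the WT array, so RNA integrity and genotype cannot be told apart here. The part of RNA integrity in the differences between the groups and between probe sets was not tested.

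Markers of the sorted cells and of other cells were read on the same arrays. Foxp3 read 752 in WT and 587 and 423, and Cxcr5 713 in WT and 374 and 392, so both defining markers were present on every array. The summed intensity of 11 T cell markers was 47579 in WT and 30748 to 31198 in the Rptor-null arrays, and 7 of the 11 were lower. That of 8 regulatory T cell markers was 19698 in WT and 10816 to 12702, with 5 lower, and that of 9 follicular T cell markers was 11836 in WT and 5547 to 5918, with 7 lower. Myeloid and dendritic markers summed to 64066 in WT and 81845 to 89282, with 12 of 19 higher and 0 lower. The part of these cell markers in the repair gene differences was not tested.

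Germinal centre B cells are cycling cells rich in repair gene transcripts. Their 6 measured markers summed to 564 in WT and 514 to 576, 4 of the 6 were under the filter level on every array, and Rgs13 read 7.45 in WT. B cell markers summed to 1924 in WT and 1916 to 2218, with 1 of 8 higher and 0 lower. Plasma cell markers (8700 in WT, 8196 to 8615, with 2 of 7 lower), erythroid markers (984 in WT, 999 to 1147, with 0 of 4 called) and NK and cytotoxic markers (21096 in WT, 22358 to 24286, with 1 higher and 1 lower of 9) were read as well. No marker was at 0 on any array. Rptor read 365 in WT and 353 and 412 (adjusted p = 0.824), on a probe set whose place relative to the deletion is unknown, so the value is no check of it. Of the 5 mTORC1 genes read, 1 was higher and 0 lower.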

How the data were processed

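Probe-set intensities of 3 Affymetrix arrays were used as deposited by the authors, on a linear scale and scaled. The submitters' processing notes name MAS5. Background correction and scaling target were not given in the sources used here. Array medians were 52.8 in WT and 55.0 and 54.9 in Rptor-null. For arrays, their number limits the precision.

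Of 45101 probe sets, 34945 named 1 gene, 932 several and 9160 none here, beside 64 controls. Values were taken as log2(intensity + 16). Each probe set's level was the average of its WT and Rptor-null means, and those not above the 40th percentile of that level (34.8 intensity units) were left out. The brightest kept probe set stood for a gene. Rptor-null was compared with WT in R 4.3.3 with limma 3.58.1 (lmFit, eBayes with a mean-variance trend, two-sided, Benjamini-Hochberg), over 12725 genes and again over 27022 probe sets. With 1 WT array, the 1 residual degree of freedom (beside 6.46 prior ones) came from the Rptor-null arrays, and WT was assumed to vary like them. Pools are separate per the labels. In 20 simulated sets of 12725 genes with 200 changed, this fit recovered 71.4% of log2 changes of 1 and 7.30% of 0.5, and 8.55% of calls were false. In these sets as many genes were raised as lowered, and all arrays had the same noise. In the data 1409 genes were called lower and 500 higher, so these rates need not hold for the calls made here.

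Members and lists were chosen with earlier results of these data known. Symbols were matched to the platform annotation, 311 of 340, of which 2 by an older or newer name. Named were all members, up to 4 genes of each other list with the largest smaller-of-both difference on one side of WT, and genes that complete a count, chosen after their values were seen. Alternatives were 2 pseudocounts, 2 filters, 2 scalings, 2 variance priors, 2 treatments of probe sets and each Rptor-null array left out.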

Additional observations from a re-analysis of the deposited data

How the results depend on the processing

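With 1 WT array and 2 Rptor-null arrays, no setting tests the WT array itself. No paired analysis was possible because 1 WT array stands against 2 separate Rptor-null pools. Lower member genes numbered 3 in the fit as described, 6 without probe sets that can match several transcripts and 5 with the mean of probe sets. Lower member probe sets numbered 5 of 53 (9.43%, beside 6.04% of all). They numbered 1 without the filter, 2 after quantile normalization and 0 without a variance trend. In the limma fit as described 15 of the 53 had an unadjusted p below 0.05, beside 6734 of all 27022 probe sets. Other repair genes lower were 22, and 13 after quantile normalization. The member median of -0.24 was -0.18 after quantile normalization, -0.17 with the mean of probe sets, and -0.26 to -0.19 with 1 Rptor-null array left out. Members 1.5-fold lower were 2 on their brightest probe sets, but 0 with a pseudocount of 64 and 1 after quantile normalization or with the mean of probe sets. They were 4 without probe sets that can match several transcripts, beside 5.01% of all genes. With 1 array left out they were 3 to 4, beside 7.01% to 7.86% of all genes. No member or other repair gene was called higher under any alternative with a test. Of 32 members, 25 kept their direction throughout. Turned were Atr with the mean of probe sets (0.017) and Mre11a without probe sets that can match several transcripts (0.18). Blm (-0.025) and Fanci (-0.030) turned after median centring, and Ercc1 (0.079), Pms2 (0.0074) and Xpc (0.092) after quantile normalization. With 1 array against 1 and no test, Blm (-0.11) and Fanci (-0.024) turned without replicate 2 and Xpc (0.017) without replicate 1. None of these genes was called in the fit as described. Over all genes 500 were called higher and 1409 lower, and 300 and 770 without a variance trend, 524 and 695 after quantile normalization, and 470 and 1894 after median centring. The causes were not tested, other than that the probe-set settings replace the probe sets themselves. Probe sets near the filter level of 34.8 carry little signal over background.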
